A study of Mus musculus with 22 samples.

Results

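The genes described here were 9 mammary hormone receptors, their partner factors and their targets (Esr1, Pgr, Prlr, Foxa1, Gata3, Wnt4, Areg, Tnfsf11 and Greb1), chosen by symbol among the 52526 gene symbols measured in mammary tissue of 22 mice. The mice were female C57BL/6J animals aged 7 to 8 weeks. For 2 weeks they had access to a running wheel (wheel-running mice) or to its hub without the wheel (control mice), and they were given liposomes filled with PBS or with clodronate, which is toxic to phagocytes that engulf it. The PBS liposomes went to 6 control and 6 wheel-running mice, the clodronate liposomes to 5 of each. In every mouse a left mammary fat pad had received EO771 cells, a mammary cancer line of the same strain carrying firefly luciferase, and was taken 24 hours later, so that no group was free of tumor cells or of liposomes. The tissue was sequenced in bulk. A lower value can come from fewer cells of a type or from less RNA in each cell, and these cannot be told apart here. The stage of the estrous cycle is not given in the sources used here.

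Mammary epithelium is built of an inner luminal layer and an outer basal layer, embedded in fat and connective tissue. Estrogen acts on luminal cells through the receptor encoded by Esr1, with Foxa1 opening chromatin for it and Gata3 maintaining luminal identity. Estrogen induces the progesterone receptor gene Pgr, Greb1 and Areg, whose product amphiregulin signals through the EGF receptor to drive duct growth. Progesterone then acts on neighboring cells through Wnt4 and through Tnfsf11, which encodes RANKL, while Prlr encodes the receptor for prolactin, the hormone of alveolar growth and milk production.

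Each library held 13256467 to 20484578 reads, with a median of 16293026. Values are CPM, read counts scaled to a common total, and the authors raised every value below 1 CPM to 1 CPM, a floor that stands for at most 13 to 20 reads of a gene. Reads came from the 3′ ends of transcripts (QuantSeq), so levels of different genes can be compared without dividing by length. Markers of the labelled tissue were present: all 8 adipocyte genes, all 7 fibroblast genes, 9 of 12 luminal genes and 6 of 7 basal genes were above the floor in every mouse. The samples differed in the other tissue they held. A keratinocyte score, the mean log2(CPM + 1) of 8 genes of outer skin layers, fell into separate ranges of 1.57 to 3.85 in 11 mice and 6.07 to 8.97 in the other 11, and the high range held 3, 2, 3 and 3 mice of the groups in the order given above. A skeletal muscle score ran from 1.78 to 11.3. A lymphocyte score was 4.33 to 5.66 in 5 mice, namely control PBS mouse 2, wheel PBS mouse 3 and wheel clodronate mice 3, 4 and 5, and at most 1.32 in the others. The lymphocyte genes were 12, of which 0 were above the floor in every mouse. The main differences that involve these mice are also given without them.

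Windows around the transcription starts of the members that the results turn on are printed here, as the stretches searched for the estrogen response element. Motifs of partner factors were not searched. Esr1 and Prlr have further windows, which are not printed. They are RefSeq sequences of build GRCm38.p6 and run from 250 bases before to 50 bases after a start, 5′ to 3′ on the strand of the gene. Capitals mark TGACC, an arm of the palindromic estrogen response element, read on either strand.
Esr1, chr10:4611739-4612038, plus strand: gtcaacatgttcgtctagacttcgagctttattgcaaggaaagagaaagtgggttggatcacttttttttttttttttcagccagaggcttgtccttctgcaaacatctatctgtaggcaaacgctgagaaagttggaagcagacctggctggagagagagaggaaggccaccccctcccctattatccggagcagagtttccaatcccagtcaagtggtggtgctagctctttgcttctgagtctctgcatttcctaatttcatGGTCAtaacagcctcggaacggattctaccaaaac
Pgr, chr9:8899583-8899882, plus strand: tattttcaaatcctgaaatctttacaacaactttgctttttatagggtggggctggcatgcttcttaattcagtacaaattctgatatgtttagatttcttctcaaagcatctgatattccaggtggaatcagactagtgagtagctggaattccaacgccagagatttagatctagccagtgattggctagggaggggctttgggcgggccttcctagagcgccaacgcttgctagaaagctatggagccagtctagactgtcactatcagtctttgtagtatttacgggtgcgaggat
Prlr, chr15:10176988-10177287, plus strand: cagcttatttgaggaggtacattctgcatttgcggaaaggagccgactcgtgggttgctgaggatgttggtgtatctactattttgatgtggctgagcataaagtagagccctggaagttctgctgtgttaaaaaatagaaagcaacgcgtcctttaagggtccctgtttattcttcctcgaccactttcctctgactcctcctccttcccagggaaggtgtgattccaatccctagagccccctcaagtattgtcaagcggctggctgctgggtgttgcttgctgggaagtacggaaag
Foxa1, chr12:57546062-57546361, minus strand: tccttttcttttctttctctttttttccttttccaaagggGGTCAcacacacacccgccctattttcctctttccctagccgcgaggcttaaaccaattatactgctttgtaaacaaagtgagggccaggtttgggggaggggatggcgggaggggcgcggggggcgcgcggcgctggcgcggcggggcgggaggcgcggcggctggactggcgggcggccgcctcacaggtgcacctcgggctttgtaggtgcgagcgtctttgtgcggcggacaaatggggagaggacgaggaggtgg
Wnt4, chr4:137277385-137277684, plus strand: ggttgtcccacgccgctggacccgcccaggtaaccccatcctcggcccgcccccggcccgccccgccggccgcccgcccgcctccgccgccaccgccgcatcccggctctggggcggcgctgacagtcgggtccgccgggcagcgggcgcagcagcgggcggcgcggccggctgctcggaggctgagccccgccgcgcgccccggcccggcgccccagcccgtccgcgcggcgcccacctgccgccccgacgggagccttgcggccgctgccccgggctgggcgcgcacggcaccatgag
RefSeq gave 13 such windows for the 9 members. The full palindrome, with both arms facing each other across 3 bases, was in 0 of the 13, and in 0.07% of 32851 windows of the same length over all genes. A single arm was in 6 of the 13 windows, those of Esr1, Areg, Greb1, Foxa1 and Gata3, against 40.5% of all windows. The printed windows of Pgr, Prlr and Wnt4 held none. A match of these letters is a description of the sequence and not a measured site, and estrogen receptors also bind far from starts.

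The members spanned a wide range of levels. Prlr was the highest, with a mean of 405 CPM over the 22 mice, and only 106 genes of all those measured had a higher mean. Gata3 followed at 146 CPM and Esr1 at 51.7 CPM. Prlr exceeded Gata3 in 21 of 22 mice, and Gata3 exceeded Esr1 in all 22. Foxa1 at 33.4 CPM and Wnt4 at 33.1 CPM were not separated by their spread, since Foxa1 was the higher in 14 mice and Wnt4 in 8. Pgr averaged 24.6 CPM and was below Wnt4 in 16 mice. Areg averaged 10.9 CPM and was above the floor in 18 mice. The last members were close to or at the limit of the measurement: Greb1 was above the floor in 9 mice and Tnfsf11 in 2. Of the 9 members, 8 were above the floor in at least 5 mice and were tested, Tnfsf11 being the exception.

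**Figure D1:**
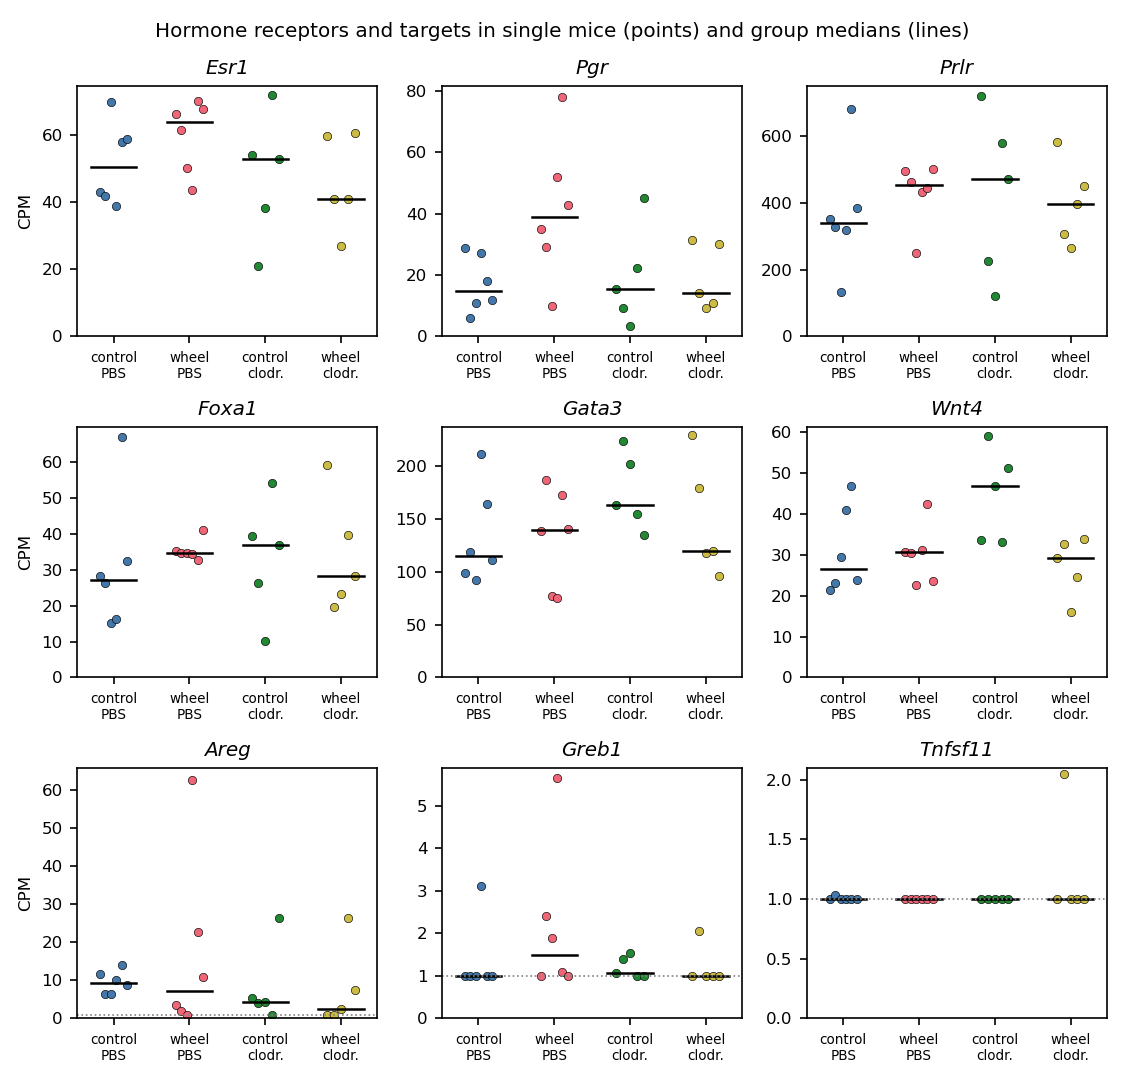
Each panel gives the CPM of a member (linear axis from 0) in every mouse of the 4 groups, with points for mice and short lines for group medians; a dotted line marks the floor of 1 CPM. Groups overlapped for every member, and Pgr was above the highest control PBS mouse in 5 of the 6 wheel PBS mice.

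Esr1 (chromosome 10, positions 4611593 to 5005614 in GRCm38), the estrogen receptor, ran from 20.9 to 72.1 CPM over all mice. With PBS liposomes it ran from 39.0 through a median of 50.6 to 69.7 CPM in control mice and from 43.7 through 63.9 to 70.2 CPM in wheel-running mice. With clodronate, control mice had 54.0, 20.9, 38.3, 72.1 and 52.7 CPM and wheel-running mice 59.6, 40.8, 26.8, 41.1 and 60.5 CPM. All 4 groups overlapped, and the lowest mouse, control clodronate mouse 2, was 3.45-fold below the highest. Wheel-running mice with PBS liposomes differed from their controls by 0.22 on the log2(CPM + 1) scale (95% interval -0.28 to 0.72).

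Pgr (chromosome 9, 8899833 to 8968611), the progesterone receptor, showed the largest difference between groups among the members. In control mice with PBS liposomes it ran from 5.97 through a median of 14.9 to 28.7 CPM, and in wheel-running mice from 9.99 through 39.0 to 78.0 CPM. Wheel PBS mouse 3, which was also high in lymphocyte genes and had the lowest luminal score of its group, was the sole wheel-running mouse within the control range. With clodronate, control mice had 15.5, 9.33, 3.42, 22.4 and 45.0 CPM and wheel-running mice 31.4, 14.1, 9.18, 10.99 and 30.2 CPM, which overlapped throughout. Pgr varied more than the other receptors, with a 22.8-fold range over the 22 mice. On the log2(CPM + 1) scale Pgr was 1.17 higher in wheel-running than in control mice with PBS liposomes (SE 0.51). The limma test gave an unadjusted p of 0.0296 and an adjusted p of 0.987 over 15138 genes, so the difference did not pass.

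Prlr (chromosome 15, 10177238 to 10349180), the prolactin receptor, was abundant in every mouse. It ran from 134 through a median of 339 to 684 CPM in control and from 249 through 454 to 503 CPM in wheel-running mice with PBS liposomes. With clodronate the control mice had 721, 225, 120, 580 and 473 CPM, and the wheel-running mice 582, 307, 264, 397 and 452 CPM. The highest and the lowest value of all mice both fell in the control clodronate group, in mice 1 and 3. The group means lay between 367 and 431 CPM, while the SD within groups was 93.2 to 249 CPM.

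Foxa1 (chromosome 12, 57540628 to 57546916, minus strand), the forkhead factor that opens chromatin for the estrogen receptor, had group means between 30.9 and 35.5 CPM. The 6 wheel-running mice with PBS liposomes were close together, from 32.7 through a median of 34.7 to 41.0 CPM, whereas their controls ran from 15.3 through 27.2 to 67.1 CPM. With clodronate, control mice had 39.4, 26.3, 10.1, 54.2 and 37.0 CPM and wheel-running mice 59.2, 19.6, 23.4, 39.7 and 28.3 CPM. The wheel PBS group lay inside the range of each other group, and the difference in spread was not tested.

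Gata3 (chromosome 2, 9857078 to 9890034, minus strand), a zinc finger factor of luminal cells and also of T cells and skin, was above 75 CPM in every mouse. It ran from 92.5 through a median of 115 to 211 CPM in control and from 75.4 through 140 to 187 CPM in wheel-running mice with PBS liposomes. The control mice with clodronate had 163, 224, 202, 155 and 134 CPM and the wheel-running mice 229, 180, 118, 120 and 96.3 CPM. Every control clodronate mouse was above the median of either PBS group save for mouse 5, which was below that of the wheel PBS group, and the groups overlapped.

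Wnt4 (chromosome 4, 137277489 to 137299726), a secreted Wnt ligand downstream of progesterone, was highest in control mice with clodronate liposomes. These mice had 33.6, 59.2, 46.8, 33.1 and 51.2 CPM, and the wheel-running mice with clodronate 29.2, 32.7, 16.1, 24.7 and 33.9 CPM. Only the wheel-running mouse at 33.9 CPM, mouse 5, reached into the range of the clodronate controls. With PBS liposomes Wnt4 ran from 21.4 through a median of 26.6 to 46.8 CPM in control and from 22.7 through 30.7 to 42.5 CPM in wheel-running mice, with nearly equal means of 30.9 and 30.2 CPM.

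Areg (chromosome 5, 91139599 to 91148432), the EGF-family ligand induced by estrogen, was the most variable of the members well above the floor. All 6 control mice with PBS liposomes were between 6.40 and 13.9 CPM, with a median of 9.38. The wheel PBS mice ran from the floor through a median of 7.15 to 62.7 CPM, and the highest value was that of mouse 4. With clodronate, control mice had 5.22, 4.02, 4.39, 1 and 26.3 CPM and wheel-running mice 1, 1, 2.55, 26.5 and 7.40 CPM, where 1 is the floor. Of the 4 mice at the floor, 0 were control mice with PBS liposomes.

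Greb1 (chromosome 12, 16670615 to 16800886, minus strand), a cofactor gene induced by estrogen, was above the floor in 1 of 6 control PBS mice, 4 of 6 wheel PBS mice, 3 of 5 control clodronate mice and 1 of 5 wheel clodronate mice. Its highest values were 5.65 CPM in wheel PBS mouse 4, the mouse that was also highest in Areg, and 3.10 CPM in control PBS mouse 4. Tnfsf11 (chromosome 14, 78277445 to 78308043, minus strand), the gene of RANKL, was above the floor in control PBS mouse 2 at 1.04 CPM, or 17 reads, and in wheel clodronate mouse 2 at 2.05 CPM, or 32 reads. Wheel clodronate mouse 2 was also the only one of its group with Greb1 above the floor, at the same 2.05 CPM. For both genes the floor hides any change below about 1 CPM, and no fold is given for Tnfsf11.

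The first question was whether voluntary running changed the members. In mice with PBS liposomes, limma called 0 of the 8 tested members at an adjusted p below 0.05, against 0.0% of all 15138 genes tested, and 1 member (Pgr) had an unadjusted p below 0.05, against 4.91% of all genes. The members' median difference, wheel-running minus control, was 0.28 on the log2(CPM + 1) scale with 6 of 8 members higher, while the median of all genes was -0.08 with 36.2% higher. Wnt4 at 0.00 and Gata3 at -0.03 (95% interval -0.55 to 0.49) showed the smallest differences. Prlr differed by 0.35 (SE 0.37) and Foxa1 by 0.36 (SE 0.34). Other tissue markers moved in both directions. The 12 luminal genes had a median difference of 0.29 with 9 of 12 higher, the 7 basal genes -0.74 with 0 higher and the 6 skeletal muscle genes -1.92 with 0 higher, and their part in the members' values was not tested beyond a fit with the luminal score as a covariate, in which the Pgr difference was 0.85 (unadjusted p = 0.0412). Without the 5 mice high in lymphocyte genes the Pgr difference was 1.27 (unadjusted p = 0.0182, adjusted p = 1). It was 0.68 among the mice of low keratinocyte score (4 wheel-running and 3 control) and 1.88 among those of high score (2 and 3). Leaving out single mice moved the Pgr difference between 0.93 and 1.51. Without control PBS mouse 2, 3 or 6, or without wheel PBS mouse 4, 5 or 6, 0 members had an unadjusted limma p below 0.05.

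In mice with clodronate liposomes, running gave 0 called members by limma, against 0.00661% of all genes (1 gene), and 1 member (Wnt4) below an unadjusted p of 0.05, against 10.4%. Wnt4 was 0.70 lower in wheel-running than in control mice (log2 difference -0.70, SE 0.24, unadjusted p = 0.0080, adjusted p = 0.273). This difference was -0.48 (unadjusted p = 0.124) without the 5 mice high in lymphocyte genes, which leaves 2 wheel-running mice. It was -0.20 among the 2 wheel-running and 2 control mice of low keratinocyte score and -1.04 among the 3 and 3 of high score. Pgr differed by 0.24 (95% interval -0.90 to 1.38), Prlr by 0.13 and Gata3 by -0.29. The members' median was -0.01 with 3 of 8 higher, against 0.00 and 50.6% for all genes. Without the 5 mice it was 0.19 with 6 of 8 higher, against -0.04 and 44.3%.

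The second question was whether clodronate, given to deplete phagocytes, changed the members. With clodronate the 8 macrophage marker genes had a median difference of -0.53 with 0 higher among control mice. Among wheel-running mice it was -0.18 with 2 of 8 higher, and limma called 0 of these genes in either comparison. Among control mice limma called 0 members, against 0.0% of all genes, and 1 (Wnt4) had an unadjusted p below 0.05, against 6.99%. Wnt4 was 0.55 higher with clodronate (SE 0.23, unadjusted p = 0.0271, adjusted p = 0.662) and Gata3 0.44 higher (SE 0.26, adjusted p = 0.763). Basal epithelial genes, which skin also expresses, had a median difference of 0.87 with 6 of 7 higher. Skeletal muscle genes (median 1.19, 6 of 6) and luminal genes (0.16, 9 of 12) were also mostly higher. Fibroblast genes (-0.50, 6 of 7) and adipocyte genes (-0.20, 6 of 8) were mostly lower. The part of these tissues in the Gata3 difference was not tested beyond the relation with basal genes within skin ranges given further on. The Wnt4 difference was 0.48 without the 5 mice high in lymphocyte genes. In that fit 0 members had an unadjusted limma p below 0.05. With all mice kept, the Wnt4 difference was 0.20 in mice of low and 0.76 in mice of high keratinocyte score. The members' median was 0.02 with 4 of 8 higher, against -0.10 and 34.6% for all genes.

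Among wheel-running mice clodronate gave 0 called members, against 0.00661% of all genes, and 0 members below an unadjusted p of 0.05, against 11.6% of all genes. Pgr was the farthest from 0, at -1.01 (SE 0.53, unadjusted p = 0.0702, adjusted p = 0.478), followed by Areg at -0.81 and Esr1 at -0.42. Of the 8 members 7 were lower, with a median of -0.28 against 0.00 for all genes. All 8 adipocyte genes and all 7 fibroblast genes were lower as well, with medians of -0.35 and -0.55, while all 12 lymphocyte genes (median 2.00) and all 6 skeletal muscle genes (median 1.84) were higher. The part of these tissues in the members' values was not tested. Leaving out the 5 mice high in lymphocyte genes moved Areg to -2.57. This value was set by the floor, since the 2 wheel-running clodronate mice that remain were both at it. In the same fit Pgr was at -1.05 and Esr1 at -0.30. The members' median was then -0.18 with 1 of 8 higher, against -0.08 and 41.1% for all genes.

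Whether the difference between wheel-running and control mice depended on the liposome was tested as an interaction. Limma called 0 members, against 0.0% of all genes, and 1 (Wnt4) had an unadjusted p below 0.05, against 7.58%. The members' median was -0.26 with 0 of 8 higher, against 0.09 and 59.2% for all genes. The 12 luminal genes had a median of -0.34 with 2 of 12 higher, while all 12 lymphocyte and all 6 skeletal muscle genes were higher. With the luminal score as a covariate the members' median was -0.14 with 3 of 8 higher, against 0.09 and 58.8%. Without the 5 mice high in lymphocyte genes it was -0.19 with 1 of 8 higher, against 0.04 and 53.2%. The part of these tissues was not tested further. The Wnt4 interaction was -0.70 (SE 0.33, unadjusted p = 0.0426, adjusted p = 0.649), and -0.49 (unadjusted p = 0.209) without the 5 mice high in lymphocyte genes. The Pgr interaction was -0.93 (95% interval -2.48 to 0.62), so the higher Pgr of wheel-running mice with PBS liposomes was not shown to differ from the value with clodronate. These comparisons share groups, and each group enters more than 1 of them, so they are not independent.

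**Figure D2:**
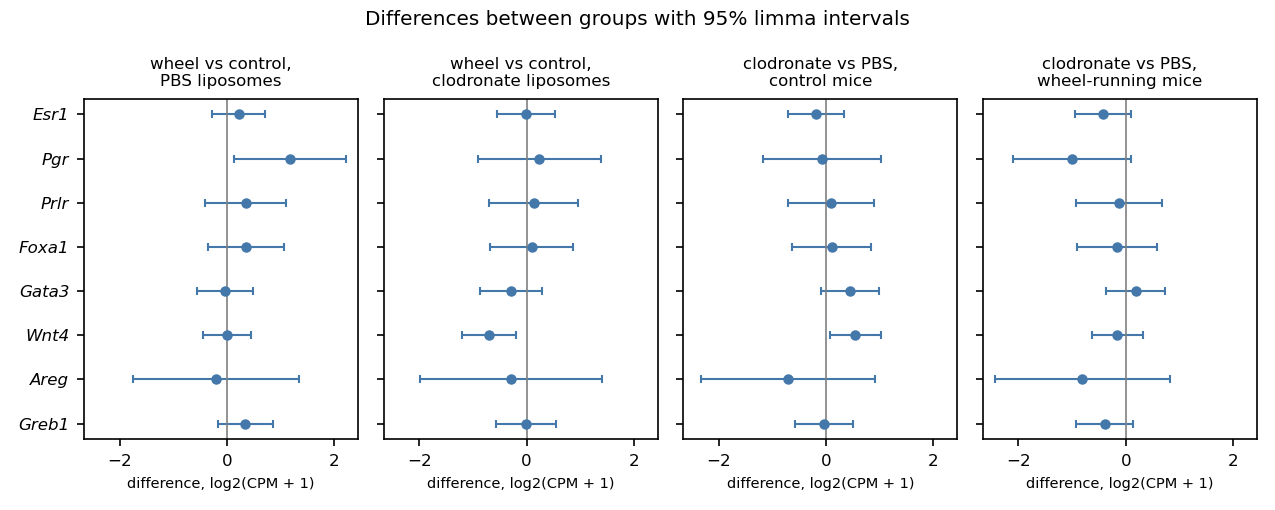
For the 8 tested members, points give the log2(CPM + 1) difference in each of the 4 comparisons between groups and bars the 95% interval from limma. Pgr with running in PBS mice and Wnt4 in 2 comparisons have intervals that exclude 0 before adjustment, and 0 members passed after it.

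Single mice within a group differed widely, and for some members these differences followed markers of epithelium or fat. For each mouse a luminal, an adipocyte and a fibroblast score were taken as the mean log2(CPM + 1) of marker genes that include no member, and both score and member were centered on the group means. Of 27 member-score pairs, 4 passed an adjusted p of 0.05 by Pearson's r in a two-sided permutation test within groups (100000 permutations). By Spearman's rho the same 4 passed and 2 more, Prlr with the adipocyte score (rho = 0.63, permutation p = 0.00784, adjusted p = 0.0353) and with the fibroblast score (rho = 0.61, permutation p = 0.0046, adjusted p = 0.031), whose r was 0.46 and 0.45.

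Prlr followed the luminal score closely, with Pearson r = 0.96 (permutation p = 1e-05, the smallest these permutations can give, adjusted p = 0.00027) and Spearman rho = 0.88 (permutation p = 5e-05) over 22 mice. The r was 0.93 without the 2 mice farthest from the median score and 0.97 without the 5 mice high in lymphocyte genes. Within the 11 mice of low and the 11 of high keratinocyte score r was 0.97 and 0.95. Values within these ranges, here and for the members below, were not centered on the group means. Their permutations crossed the groups, so differences between groups enter these values.

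Foxa1 followed the same score with r = 0.80 (permutation p = 0.00014, adjusted p = 0.00126) and rho = 0.73 (permutation p = 0.00123). It was 0.65 without the 2 farthest mice and 0.87 without the mice high in lymphocyte genes. Within the ranges of keratinocyte score r was 0.59 (permutation p = 0.0586, adjusted p = 0.067 over 8 such values) in the low and 0.85 in the high range. Foxa1 and Prlr also varied together, with r = 0.85 over the 22 group-centered mice.

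Pgr had r = 0.68 with the luminal score (permutation p = 0.00262, adjusted p = 0.0177) and rho = 0.61, and 0.61 without the 2 farthest mice. Its relation was the least secure of the 4. It lost significance without the 5 mice high in lymphocyte genes (r = 0.65, adjusted p = 0.144), without wheel PBS mouse 3 (r = 0.61, adjusted p = 0.127) and without control clodronate mouse 3 (r = 0.58, adjusted p = 0.0874). Within the low keratinocyte range r was 0.26 (permutation p = 0.45) and within the high range 0.80 (permutation p = 0.00343).

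Esr1 followed the adipocyte score. Its r was 0.77 (permutation p = 0.00012, adjusted p = 0.00126), its rho 0.72 (permutation p = 0.00047), and r was 0.72 without the 2 farthest mice and 0.81 without the mice high in lymphocyte genes. Within the low and the high range of keratinocyte score r was 0.73 and 0.80. With the luminal score Esr1 had r = 0.38 (permutation p = 0.153, adjusted p = 0.376) over all mice, and 0.64 without the 2 farthest from the median score. The difference between these 2 values of r was not tested. The other 20 pairs of tested members and scores had r between -0.43 and 0.52 and adjusted p between 0.0761 and 0.92. Among them, Esr1 with the fibroblast score had r = 0.52 (adjusted permutation p = 0.0761). It passed with upper-quartile scaling (r = 0.55, adjusted permutation p = 0.0421) and when some single mice were left out. By Pearson's r, Pgr with the fibroblast score, and Foxa1, Prlr and Greb1 (negative r) with the adipocyte score, passed only when certain single mice were left out.

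**Figure D3:**
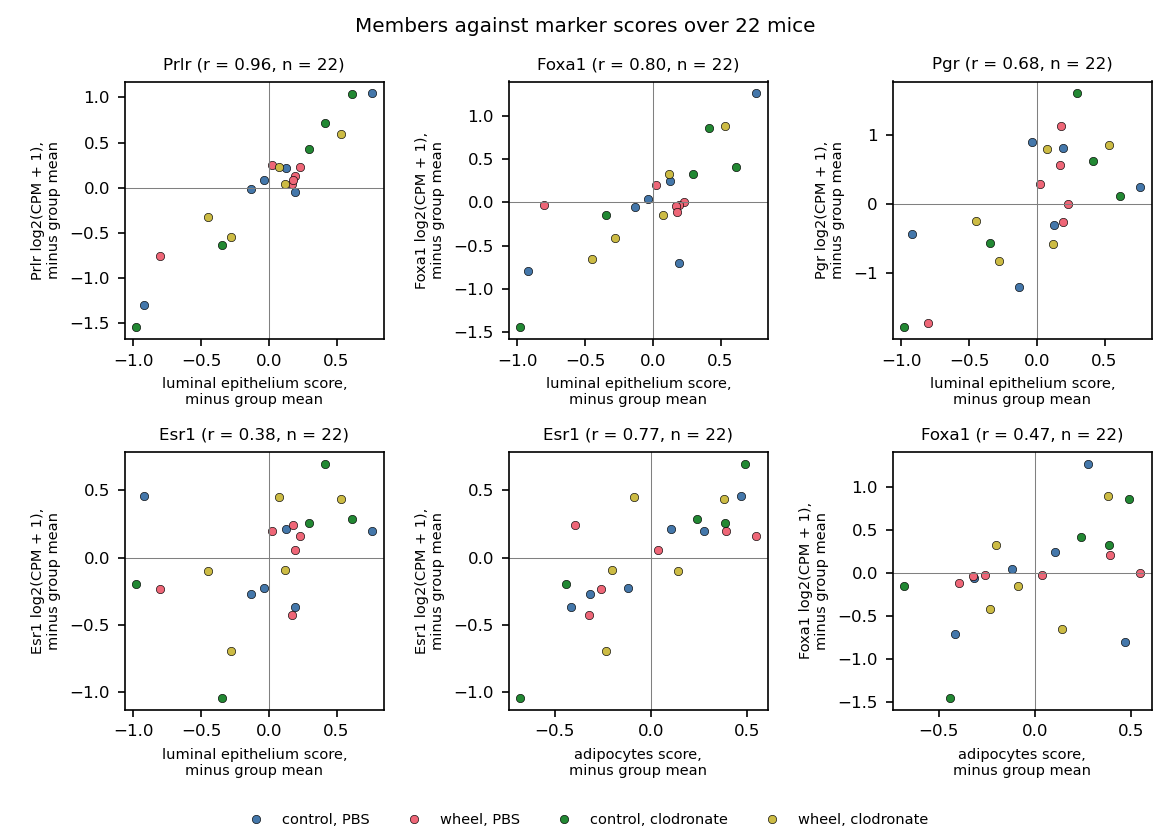
Group-centered log2(CPM + 1) of a member (vertical axis) against a group-centered marker score (horizontal axis), 1 point for each of the 22 mice, colored by group. Prlr lies close to a line with the luminal score (r = 0.96), and Foxa1, Pgr and, with the adipocyte score, Esr1 scatter more widely, while Esr1 with the luminal score (r = 0.38) and Foxa1 with the adipocyte score (r = 0.47) did not pass adjustment.

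**Figure D4:**
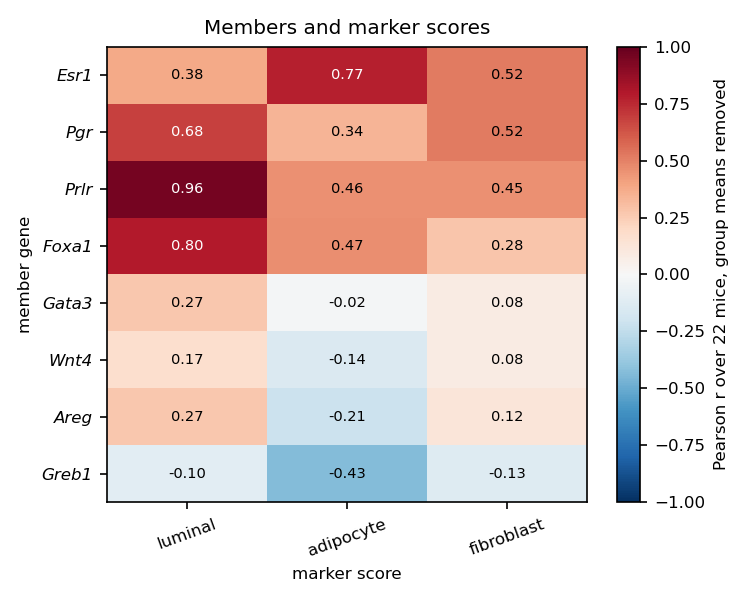
Pearson r over 22 group-centered mice for the 8 tested members (rows) and 3 marker scores (columns), on a color scale centered on 0. The pairs that passed adjustment by r were Prlr, Foxa1 and Pgr with luminal genes and Esr1 with adipocyte genes.

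Gata3 is known from skin as well as from luminal cells, and the basal markers Krt5 and Krt14 are also keratins of skin. Because the mice fell into separate ranges of keratinocyte content, the relation with basal genes was taken within each range and not over all mice, a choice made after the data were seen. The values were not centered on the group means, and mice were permuted across groups. Differences between groups therefore enter r and its p. Gata3 ran from 75.4 through a median of 120 to 164 CPM in the 11 mice of the low range and from 92.5 through 180 to 229 CPM in the 11 of the high range. Its r with the basal score was 0.67 in the low range (permutation p = 0.0248, adjusted p = 0.132; rho = 0.61) and 0.63 in the high range (permutation p = 0.0386, adjusted p = 0.154; rho = 0.55). Wnt4 had r = 0.67 in the high range (adjusted p = 0.132) and 0.32 in the low, and Esr1 0.75 in the low range (adjusted p = 0.118) and -0.11 in the high. Of the 16 values, 0 passed adjustment by permutation, and 4 had an unadjusted p below 0.05.

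**Figure D5:**
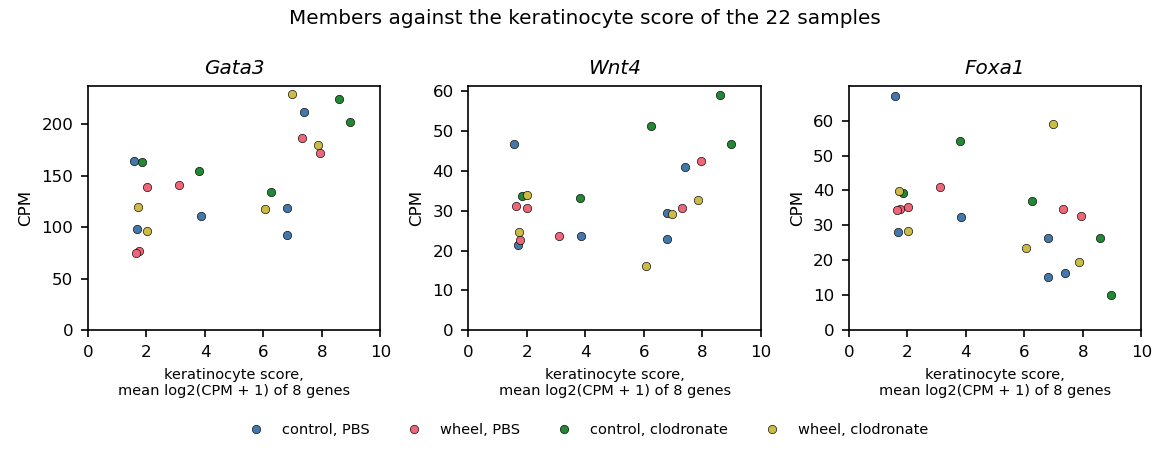
CPM of Gata3, Wnt4 and Foxa1 (linear axes from 0) against the keratinocyte score of each mouse, colored by group. The mice form a low and a high cluster along the score, each with all 4 groups.

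The genes whose group-centered values were most like each member, out of 13207 compared, differed by member. Closest to Prlr were Krt18 (r = 0.97), a keratin of luminal cells that is part of the luminal score, Mlph (0.97) and Slc12a2 (0.96), an ion cotransporter of secretory epithelia. Closest to Foxa1 were the tight junction gene Cldn3 (0.90), also part of the luminal score, the milk protein gene Csn3 (0.88) and Lcn2 (0.87). Gata3 was most like Cdh1 (0.90), which encodes E-cadherin, Mapk3 (0.89) and Fxyd3 (0.89). Cdh1 is also part of the luminal score, with which Gata3 had r = 0.27 (adjusted permutation p = 0.421). Esr1 was most like the glutamine transporter gene Slc1a5 (0.90), Pank3 (0.83), which acts in coenzyme A synthesis, and the growth factor gene Igf1 (0.81). For Pgr these were Tmed3 (0.90), the arginase gene Arg2 (0.83) and Gatb (0.78), and for Wnt4 the heat shock gene Hspa1b (0.75), Gga1 (0.74) and Plxnb1 (0.73). Areg had Maea (0.81), 1700028E10Rik (0.76) and Polr2l (0.75), and Greb1 had Slc30a1 (0.81), Rpl3-ps1 (0.72) and Etv4 (0.69), the last with 13 of 22 mice at the floor for Greb1. These values are the highest of many and describe these 22 mice. They were taken over both ranges of keratinocyte score together, so differences in skin content enter them.

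The rest of the pathways around the members was also examined. Of 74 genes in 6 lists (steroid receptors and coregulators, estrogen and progesterone targets, the EGF family, the RANK system, prolactin signaling and Wnt signaling), 70 were tested. The other 4, namely the second estrogen receptor gene Esr2, the estrogen target Tff1 and the milk protein genes Csn2 and Wap, were at the floor in all 22 mice. Limma called 0 of 70 in each of the 5 comparisons. The count at an unadjusted p below 0.05 was 0 and 3 of 70 (4.29%) for running with PBS and with clodronate liposomes. It was 2 (2.86%) and 7 (10.0%) for clodronate in control and in wheel-running mice, and 3 for the interaction. All were at or below the share of all genes given above.

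Among genes that act with Esr1 and Pgr, the corepressor gene Ncor1 averaged 285 CPM and the membrane progesterone-binding gene Pgrmc2 179 CPM. The coactivator gene Ncoa1 had a log2 difference of -0.37 with clodronate in wheel-running mice, at an unadjusted p below 0.05. Among hormone targets the highest were Igfbp4 at 439 CPM and Igf1 at 188 CPM, both of the insulin-like growth factor system, and Igfbp4 was -0.46 in the same comparison. Without the 5 mice high in lymphocyte genes these were -0.36 for Ncoa1 and -0.54 for Igfbp4, with unadjusted p of 0.153 and 0.0612. The partners of Areg were measurable, with the receptor gene Egfr at 28.2 CPM and Adam17, whose protease releases amphiregulin from the membrane, at 27.1 CPM. Erbb3, another receptor of the family, was 0.74 with clodronate in control mice.

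The receptor for RANKL was more readily detected than its ligand. Tnfrsf11a, which encodes RANK, averaged 6.44 CPM and was above the floor in 21 mice, and the decoy receptor gene Tnfrsf11b averaged 1.37 CPM with 8 mice above the floor. In the RANK list Id2 (65.9 CPM) and Nfkb1 (21.9 CPM) were the highest, and all 7 genes were higher with clodronate in wheel-running mice (median 0.27, 0 called), against 50.1% of all genes, with Id2 at 0.64. In that comparison all 12 lymphocyte genes were higher too, and without the 5 mice high in them 4 of the 7 were higher (median 0.02) and Id2 was at 0.02 (unadjusted p = 0.969). Chuk, a kinase of NF-kB signaling, was -0.63 with clodronate in control mice. Beside Prlr, the prolactin list held the related growth hormone receptor gene Ghr at 302 CPM and Csn3 at 57.7 CPM, while Stat5a and Elf5, which act downstream of the receptor, were at 22.3 and 6.98 CPM. The feedback inhibitor gene Socs3 was 0.62 with clodronate in wheel-running mice, and 0.63 (unadjusted p = 0.0986) without the mice high in lymphocyte genes.

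Of the genes that respond to Wnt ligands such as Wnt4, the receptor gene Fzd4 (147 CPM) and the coreceptor gene Lrp6 (59.9 CPM) were the highest, and Fzd4 was -0.83 with running in clodronate mice, or -0.31 (unadjusted p = 0.428) without the 5 mice high in lymphocyte genes. Lef1, a factor of Wnt signaling that lymphocytes also express, was 2.59 in that comparison and -0.01 (unadjusted p = 0.990) without them.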

How the data were processed

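Mammary tissue of 22 mice was profiled with Lexogen QuantSeq 3′ FWD. The signal the authors deposited is CPM by gene and mouse, with 1 as the lowest value allowed. The submitters' processing notes name STAR 2.5.3a and GRCm38; the annotation and strand setting are not given in the sources used here. Library depth was read from the steps between values, all of which were whole reads within 0.05 read. The total behind CPM includes multimapping (16.6% to 19.9%), unmapped (4.13% to 8.66%) and no-feature reads (11.5% to 17.8%). These rows were left out, as were count tests, since reads of genes at the floor are lost. For 106 symbols listed more than once, the highest row was used.

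Groups and replicate numbers came from the labels, and replicates are separate mice. Log2(CPM + 1) of the 15138 genes that exceeded the floor in 5 mice or more was fitted with limma 3.58.1 in R 4.3.3 (eBayes, variance trend, 4 group means, Benjamini-Hochberg adjustment, called below 0.05). This scale understates changes of low genes. Correlations were computed with numpy 2.4.6 (Python 3.11.15), for 9 members and 3 scores. Code was tested on simulated data. Coordinates are from GENCODE M21.

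The members and lists were chosen with earlier results of these data known. Beside the members, the genes named were the 3 most alike to each member among genes that exceeded the floor in 11 mice or more. In each list they were the 2 with the highest mean and the 1 with the smallest unadjusted p. Esr2, Tff1, Csn2, Wap, Tnfrsf11a, Tnfrsf11b, Stat5a, Elf5 and Lef1 were named beside that rule, after values were seen. The ranges of keratinocyte score and the values within them were also chosen after seeing the data; correlations with basal and keratinocyte genes over all mice were computed earlier and are not given, because the mice form clusters. Alternatives were a pseudocount of 5 or none, no filter, upper-quartile scaling, the luminal score as covariate, a block for replicate number, and omission of single mice or of the 5 mice high in lymphocyte genes. The replicate numbers are shared by different mice.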

Additional observations from a re-analysis of the deposited data

Results flagged for a closer look

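In 54 groups of 5 or 6 mice, 9 had a highest or lowest mouse that stood far from the rest by Dixon's 95% criterion, which chance meets in about 1 in 20 groups. That rate does not apply to 4 of the 9, the groups of Greb1 and Tnfsf11 in which all other mice were at the floor, since any value above the floor meets the criterion there. All values are log2(CPM + 1). Greb1 was 2.04 in control PBS mouse 4 and 1.61 in wheel clodronate mouse 2, while the other mice of both groups were at the floor. Tnfsf11 was 1.03 in control PBS mouse 2 and 1.61 in wheel clodronate mouse 2, again alone above the floor in their groups. Foxa1 was 5.39 in wheel PBS mouse 6, above a group that was otherwise close together. Wheel PBS mouse 3 was apart in 3 measures, with Prlr at 7.97, the luminal score at 4.25 and the lymphocyte score at 4.49. The lymphocyte score was 4.33 in control PBS mouse 2. No explanation of these values was tested.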

How the results depend on the processing

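The count of called members was 0 in all 5 comparisons under every alternative run, and the lowest adjusted p of a member in any fit was 0.129 (Wnt4, running with clodronate). Of 40 member effects, 19 kept their direction in every fit. The luminal covariate turned the interaction of Areg (0.18), Foxa1 (0.10) and Prlr (0.27), running with clodronate for Esr1 (0.0314), clodronate in control mice for Foxa1 (-0.12) and Prlr (-0.21), clodronate in wheel-running mice for Prlr (0.0617), and running with PBS for Wnt4 (-0.0318). A pseudocount of 5 turned running with PBS for Areg (0.0505) and Wnt4 (-0.0024). Upper-quartile scaling turned Esr1 with running and clodronate (0.0071) and Gata3 with running and PBS (0.018). Without the 5 mice high in lymphocyte genes, running with PBS turned for Areg (0.13) and Gata3 (0.0865), running with clodronate for Esr1 (0.16), Gata3 (0.23) and Greb1 (0.17), and the interaction for Gata3 (0.15). The causes were not tested. Leaving out single mice turned running with PBS for Areg (-0.78 to 0.22), Gata3 (-0.15 to 0.12) and Wnt4 (-0.10 to 0.13). It turned running with clodronate for Areg (-0.91 to 0.24), Esr1 (-0.27 to 0.17), Foxa1 (-0.26 to 0.31), Greb1 (-0.13 to 0.0423), Pgr (-0.21 to 0.64) and Prlr (-0.25 to 0.39). It turned clodronate in control mice for Esr1 (-0.37 to 0.0650), Foxa1 (-0.11 to 0.46), Greb1 (-0.0935 to 0.13), Pgr (-0.47 to 0.37) and Prlr (-0.17 to 0.48), clodronate in wheel-running mice for Prlr (-0.28 to 0.00937) and Wnt4 (-0.24 to 0.0144), and the interaction for Areg (-0.70 to 0.48) and Prlr (-0.60 to 0.0440). Of the 27 member-score pairs, 3 to 7 were called when a mouse was left out, 7 without control PBS mouse 3 or wheel PBS mouse 5, and 0 of 16 values with the basal score within 2 ranges of keratinocyte score, an alternative chosen after seeing the data with 11 mice in each value. With the replicate number as a block, 0 members and 0 genes were called in every comparison. Of 21 pairs of same-numbered mice, 10 deviated together with r over 0.1 (range -0.39 to 0.52). Differently numbered mice were not compared in this way, so these values cannot decide whether same-numbered mice pair. Reads below 1 CPM are lost, which limits Greb1, Tnfsf11 and, in 4 mice, Areg.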
